A study of Mus musculus with 4 samples.

Results

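The regions described here are places where phosphorylated CREB was detected in chromatin after forskolin but not after vehicle, and which lie away from the promoters of protein-coding transcripts. Start sites of other transcripts were not excluded. They were chosen by a rule on the peak lists. The 4 lists (mouse build mm9, NCBIM37) were merged where peaks shared 1 bp or more. A merged region was kept if it had a peak in both forskolin lists and in neither vehicle list, and if its centre lay more than 10 kb and at most 100 kb from the nearest transcription start site (TSS) of a protein-coding transcript. This kept 2725 of 28335 merged regions. Of all merged regions 18.3% were forskolin-only, as were 25.0% of the 10905 regions in that distance window, and the 2725 made up 52.5% of the 5187 forskolin-only regions. Both the class and the distance are the selection, so these counts and the peak scores are given as a description, with no test.

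The chromatin came from MC3T3-E1 cells, an established mouse line of pre-osteoblasts, and was precipitated with an antibody to CREB phosphorylated at serine 133. One group had received DMSO vehicle for 1 h and the other 100 nM forskolin for 1 h, with 2 libraries in each group that the labels give as biological replicates. All libraries thus came from a single line at a single time, and the cells' identity could not be checked, since the lists hold binding sites and no expression. The series concerns genes that parathyroid hormone (PTH) controls in bone cells.

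CREB is a leucine-zipper transcription factor that binds the cAMP response element (CRE), either the full palindrome TGACGTCA or its core TGACG. Forskolin activates adenylyl cyclase, the cAMP so made activates protein kinase A, and the kinase phosphorylates CREB, which then recruits the coactivators CBP and p300; PTH acts on osteoblasts largely through the same kinase. Distal elements are well known in bone cells from Tnfsf11, the gene of the osteoclast-forming cytokine RANKL, whose transcription is controlled by PTH and cAMP through far upstream enhancers.

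Sequences of 201 bp about the region centre, the width used for all motif searches, show what such regions look like. They are on the plus strand of mm9, with the CRE core and the AP-1 site TGAGTCA in capitals on either strand. The first group holds the 8 regions ranked highest by the lower of their percentiles in the forskolin lists, each named for the gene with the nearest TSS. A percentile is the share of a list's peaks with a lower score, ties taking their mean rank. Of these 8 sequences 7 held a CRE core and 4 held 2 cores, none held the full CRE, and the one near Popdc2 also held an AP-1 site. The one near Atg4c held neither, but had 3 copies of the RUNX motif.
Trim25 chr11:88885563-88885763: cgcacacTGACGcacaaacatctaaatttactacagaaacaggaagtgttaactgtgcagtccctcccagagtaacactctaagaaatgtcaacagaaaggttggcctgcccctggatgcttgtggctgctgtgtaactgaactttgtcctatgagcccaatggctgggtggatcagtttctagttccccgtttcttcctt
Tiparp chr3:65278692-65278892: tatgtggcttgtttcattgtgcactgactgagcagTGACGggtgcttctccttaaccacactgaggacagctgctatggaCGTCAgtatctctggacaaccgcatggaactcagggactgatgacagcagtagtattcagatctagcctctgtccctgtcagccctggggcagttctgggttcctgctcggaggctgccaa
Arhgap28 chr17:68216062-68216262: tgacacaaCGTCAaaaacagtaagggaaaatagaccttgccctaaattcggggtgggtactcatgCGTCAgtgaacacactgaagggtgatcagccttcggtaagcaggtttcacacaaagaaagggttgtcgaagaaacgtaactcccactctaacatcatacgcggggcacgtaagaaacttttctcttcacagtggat
Tacc1 chr8:26384778-26384978: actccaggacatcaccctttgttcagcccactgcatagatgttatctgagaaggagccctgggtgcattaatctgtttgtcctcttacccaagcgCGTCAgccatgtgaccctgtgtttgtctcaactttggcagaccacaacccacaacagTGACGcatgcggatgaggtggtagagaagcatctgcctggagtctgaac
Popdc2 chr16:38396234-38396434: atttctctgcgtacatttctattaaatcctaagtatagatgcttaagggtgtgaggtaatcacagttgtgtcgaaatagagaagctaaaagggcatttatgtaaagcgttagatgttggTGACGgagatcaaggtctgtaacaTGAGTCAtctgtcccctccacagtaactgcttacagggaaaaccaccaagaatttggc
Plekha2 chr8:26178676-26178876: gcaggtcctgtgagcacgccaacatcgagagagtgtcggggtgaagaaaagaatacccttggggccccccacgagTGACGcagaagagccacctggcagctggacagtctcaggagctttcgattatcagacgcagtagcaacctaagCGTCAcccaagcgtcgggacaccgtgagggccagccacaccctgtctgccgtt
Atg4c chr4:98835805-98836005: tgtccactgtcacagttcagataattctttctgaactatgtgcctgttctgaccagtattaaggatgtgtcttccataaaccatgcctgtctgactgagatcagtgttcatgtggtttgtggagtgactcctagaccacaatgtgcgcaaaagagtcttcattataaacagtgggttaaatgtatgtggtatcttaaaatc
Kcne4 chr1:78862778-78862978: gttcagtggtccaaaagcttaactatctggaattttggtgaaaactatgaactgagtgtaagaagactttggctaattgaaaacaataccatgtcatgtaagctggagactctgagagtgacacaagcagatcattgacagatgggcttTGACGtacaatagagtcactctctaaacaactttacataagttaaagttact

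The second group is shown for genes of cAMP and bone biology. Of the 4 regions of Tnfsf11, 2 are shown, the higher-ranked one closer to the gene without a CRE core and the farther one with a core near its centre. The highest regions of Fos and Nr4a1, immediate-early genes and classical CREB targets, held neither the core nor the AP-1 site. That of Runx2, the master transcription factor of osteoblasts, held an AP-1 site near its edge. The farther Tnfsf11 sequence and those of Pde10a and Nfil3 were added after their values were seen, the last pair to show the full CRE, here in capitals, at -2 bp and 4 bp from the centre to its first base.
Tnfsf11 chr14:78730475-78730675: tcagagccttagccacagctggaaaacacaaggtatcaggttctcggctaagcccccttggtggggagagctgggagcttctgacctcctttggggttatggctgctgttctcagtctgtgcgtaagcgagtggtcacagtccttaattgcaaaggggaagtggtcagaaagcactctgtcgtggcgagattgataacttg
Tnfsf11 chr14:78784294-78784494: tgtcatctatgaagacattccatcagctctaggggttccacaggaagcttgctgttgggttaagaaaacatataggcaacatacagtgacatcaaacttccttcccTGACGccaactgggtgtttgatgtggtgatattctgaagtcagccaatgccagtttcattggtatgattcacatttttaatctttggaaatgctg
Fos chr12:86803169-86803369: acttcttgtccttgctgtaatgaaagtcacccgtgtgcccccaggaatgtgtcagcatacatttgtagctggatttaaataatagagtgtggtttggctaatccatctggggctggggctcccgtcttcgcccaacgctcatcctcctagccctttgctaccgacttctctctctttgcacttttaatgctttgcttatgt
Nr4a1 chr15:101084305-101084505: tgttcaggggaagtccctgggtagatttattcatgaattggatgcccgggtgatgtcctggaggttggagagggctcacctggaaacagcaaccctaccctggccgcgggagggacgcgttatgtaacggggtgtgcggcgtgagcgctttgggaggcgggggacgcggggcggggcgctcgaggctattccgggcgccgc
Runx2 chr17:44791415-44791615: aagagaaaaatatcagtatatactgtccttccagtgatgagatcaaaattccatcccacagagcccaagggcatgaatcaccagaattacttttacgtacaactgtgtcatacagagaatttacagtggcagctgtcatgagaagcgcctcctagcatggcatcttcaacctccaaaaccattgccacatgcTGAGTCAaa
Pde10a chr17:8680748-8680948: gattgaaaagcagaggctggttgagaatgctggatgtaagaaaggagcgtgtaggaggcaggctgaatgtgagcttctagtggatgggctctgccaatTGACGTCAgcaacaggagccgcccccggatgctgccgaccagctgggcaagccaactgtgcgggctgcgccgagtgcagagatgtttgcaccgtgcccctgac
Nfil3 chr13:53097042-53097242: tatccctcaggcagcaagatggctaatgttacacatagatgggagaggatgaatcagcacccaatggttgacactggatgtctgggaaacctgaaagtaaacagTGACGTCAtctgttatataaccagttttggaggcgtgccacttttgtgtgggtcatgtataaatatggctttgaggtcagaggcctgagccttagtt

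Per library, the lists held 14686 and 10180 peaks after vehicle and 25566 and 19371 after forskolin (replicates 1 and 2). Of these, 4001 and 2234 vehicle peaks and 9773 and 6727 forskolin peaks lay 10 to 100 kb from a TSS. Distal peaks were more numerous in both forskolin lists than in either vehicle list, with means of 8250.0 ± 2153.8 and 3117.5 ± 1249.5 (SD, n = 2 libraries each). The lists and the distance window are those the rule used, so these numbers and the shares that follow are given with no test. The deposited score has no stated scale. Low scores fell on multiples of a step in each list, and if 1 step stood for 1 read tag, forskolin replicate 2 had 0.347 of the depth of forskolin replicate 1, against 1.03 and 1.07 for the vehicle libraries.

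The share of peaks in the distal window was 27.2% and 21.9% in the vehicle libraries and 38.2% and 34.7% in the forskolin libraries. Both forskolin libraries lay above both vehicle libraries, by 11.9 percentage points on average. Among regions called in both forskolin libraries, the share without any vehicle peak was 7.88% (Wilson 95% interval 7.30 to 8.51, over 7586 regions) within 1 kb of a TSS. It was 45.2% (43.1 to 47.2) at 1 to 10 kb, 46.1% (44.9 to 47.4, over 5909 regions) at 10 to 100 kb and 47.5% (45.1 to 49.8) beyond 100 kb. Within the distal window it was 45.4%, 45.2% and 48.2% at 10 to 20, 20 to 50 and 50 to 100 kb. The step in this share therefore lay at the promoter, and the share differed little from 1 kb outward. Wilson intervals here and below treat regions as independent and cover counting error only.

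The selected regions had a median distance of 32348 bp from the nearest TSS, with quartiles at 18746 and 55294 bp. Of the 2725, 764 lay at 10 to 20 kb, 1160 at 20 to 50 kb and 801 at 50 to 100 kb, and 44.4% (42.6 to 46.3) were upstream of that TSS. Introns held 1238 (45.4%), space between protein-coding genes 1396 (51.2%), coding exons 40 and other exons 51. Of the intronic regions, 976 (78.8%) lay in the gene whose TSS was nearest. Distal regions called in all 4 libraries, of which there were 1778, were in introns in 40.3% (38.0 to 42.6) of cases, and the 4171 distal regions of a single library in 46.0% (44.5 to 47.5). Regions of a single library had a median width of 311 bp, the peak width of forskolin replicate 1 and of no other list. With forskolin replicate 2 left out, 5892 distal regions had a forskolin peak and no vehicle peak. With forskolin replicate 1 left out there were 3480. Most regions of a single library were thus forskolin peaks absent from the other forskolin list, and this class is no neutral background. Within 1 kb of the TSS of a noncoding gene lay 58 of the selected regions (2.13%, 1.65 to 2.74), against 100 of the 1778 regions of all libraries (5.62%, 4.65 to 6.79). Those 2 intervals did not overlap. Of the 4171 distal regions of a single library, 70 lay that close (1.68%, 1.33 to 2.115), an interval that overlaps that of the selected regions. At the edges of the window, the nearest regions kept were 10016 bp from Prtg and 10029 bp from Rab11fip4, and the nearest left out were 9999 bp from Tmem30b and 9991 bp from Tac4. At the far limit, a region 99946 bp from Pigk was kept and one 100031 bp from Irx3 was not.

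The CRE core set these sequences, which the rule had not used, apart from their surroundings. It was present in 1068 of 2725 windows (39.2%, 37.4 to 41.0), against 6.67% (6.03 to 7.37) of 5351 flanking windows of the same length placed 2 kb to either side. In distal regions of all 4 libraries the core was present in 32.3% (30.2 to 34.6), and in distal regions of 1 library in 19.9% (18.8 to 21.2). The full CRE, which contains the core, ran the other way. It was found in 98 of the forskolin-only regions (3.60%, 2.96 to 4.36) and in 99 of the 1778 regions of all libraries (5.57%, 4.60 to 6.73), and in 0.0934% of flanks. Over all ranks, forskolin-only regions thus held the core more often and the palindrome less often than distal regions of all 4 libraries, with intervals that did not overlap in either case. For the palindrome the order turned at matched rank below the highest-ranked regions, but mostly with overlapping intervals, as given below. These shares were not particular to the 10 to 100 kb window. Forskolin-only regions at 1 to 10 kb held the core in 40.5% and the full CRE in 3.13%. Those beyond 100 kb held them in 38.2% and 4.81%, and those within 1 kb of a TSS in 33.1% and 2.68%.

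The AP-1 site TGAGTCA, bound by Fos and Jun dimers, had the highest ratio to the flanks among the motifs searched other than the CRE forms and NRF1. It was present in 659 windows (24.2%, 22.6 to 25.8) and in 4.09% of flanks. The share was 14.9% (13.3 to 16.6) in distal regions of all libraries and 20.7% (19.5 to 22.0) in those of 1 library. Forskolin-only regions at 1 to 10 kb had it in 21.7% (19.3 to 24.2) and those beyond 100 kb in 23.2% (20.4 to 26.2). Within 1 kb of a TSS it was in 9.53% of forskolin-only regions. The full CRE and the AP-1 site are different words, so no match counts as both. Both a core and an AP-1 site were present in 213 regions, an AP-1 site alone in 446, and neither in 1211 (44.4%, 42.6 to 46.3), against 57.3% (54.9 to 59.5) with neither among distal regions of all libraries.

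Motifs of other factors separated the classes differently. RUNX (TGTGGT), the motif of the osteoblast factor Runx2, was in 36.0% (34.2 to 37.8) of forskolin-only regions, 34.5% (32.4 to 36.8) of regions of all libraries and 15.3% of flanks, so that it marked both classes to a like extent. Forskolin-only regions at 1 to 10 kb and beyond 100 kb held RUNX in 35.5% and 35.6%. TEAD (CATTCC) was in 15.9% (14.6 to 17.3) against 21.7% (19.8 to 23.6), and the GC box (GGGCGG) in 5.95% (5.12 to 6.90) against 12.5% (11.1 to 14.2). Both were thus less frequent in forskolin-only regions than in those of all libraries. The C/EBP motif (TTGCNNAA) was in 10.2% against 9.34%, with overlapping intervals, and a C/EBP-ATF composite (TGATGCAA) in 0.844% (0.563 to 1.26) against 2.03% (1.47 to 2.79). Distal regions of 1 library held the composite in 1.10% (0.828 to 1.47), which overlaps the forskolin-only interval. The general motifs CCAAT and E-box were close to their flanking level, CCAAT with 22.5% against 24.2% in flanks and the E-box, CANNTG, with 69.6% against 67.3%. The ETS motif (CCGGAAGT) was in 5 regions and the NRF1 motif in 1, and all motifs were searched on both strands.

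**Figure D1:**
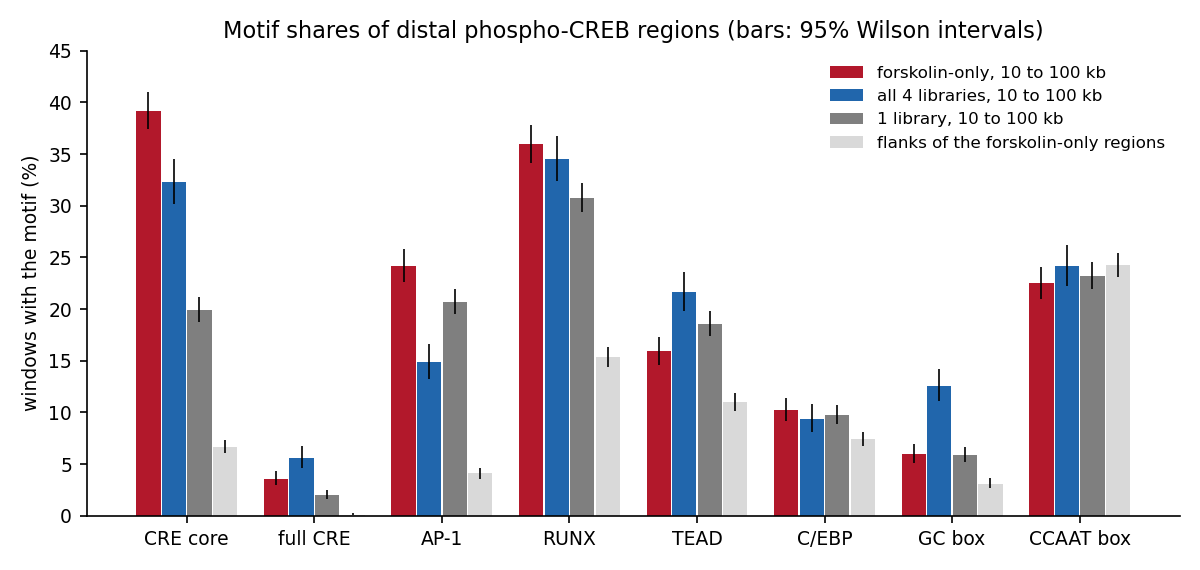
Share of 201 bp windows that hold each motif, in percent, for forskolin-only distal regions (2725), distal regions of all 4 libraries (1778), distal regions of 1 library (4171) and the flanks of the forskolin-only regions (5351); error bars are Wilson 95% intervals. The CRE core and AP-1 bars are highest in the forskolin-only class, at 39.2% and 24.2%, while the full CRE, TEAD and GC box bars are highest in regions of all 4 libraries.

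The letters after the core show which forms it took. Reading each core on its own strand gave 1335 cores in the forskolin-only regions, of which TGACGTCA, counted once per strand, was 15.1%. In distal regions of all 4 libraries it was 26.2% of 771 cores, and in flanks 2.67% of 375. The next forms in the forskolin-only regions were TGACGCAG with 5.09% and TGACGTGG with 4.42%, and then TGACGTGT with 3.97%. No single 8-letter form other than the palindrome made up more than 5.09% of the cores. One core was present in 828 regions, 2 in 217 and 3 or more in 23, where each full CRE counts as 2 cores. Among regions without a full CRE, 133 held 2 cores and 9 held 3 or more. Only 2 regions held more than 1 full CRE. A region 15074 bp downstream of the Mcoln2 TSS (chromosome 3, 145868231 to 145868575) held 2, and one 21136 bp downstream of the Tns1 TSS (chromosome 1, 73953793 to 73954108) held 3, although both ranked low, with lower percentiles of 27.2 and 17.1.

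The CRE core lay close to the middle of these regions. Among regions with a core, the median distance of the nearest core from the centre was 26 bp, and in 527 (49.3%) it was within 25 bp. The full CRE was as near, with a median of 20 bp and 62.2% within 25 bp. AP-1 sites were spread more broadly, with a median of 43 bp and 31.6% within 25 bp. In distal regions of all 4 libraries the medians were 23 bp for the core and 41 bp for AP-1.

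**Figure D2:**
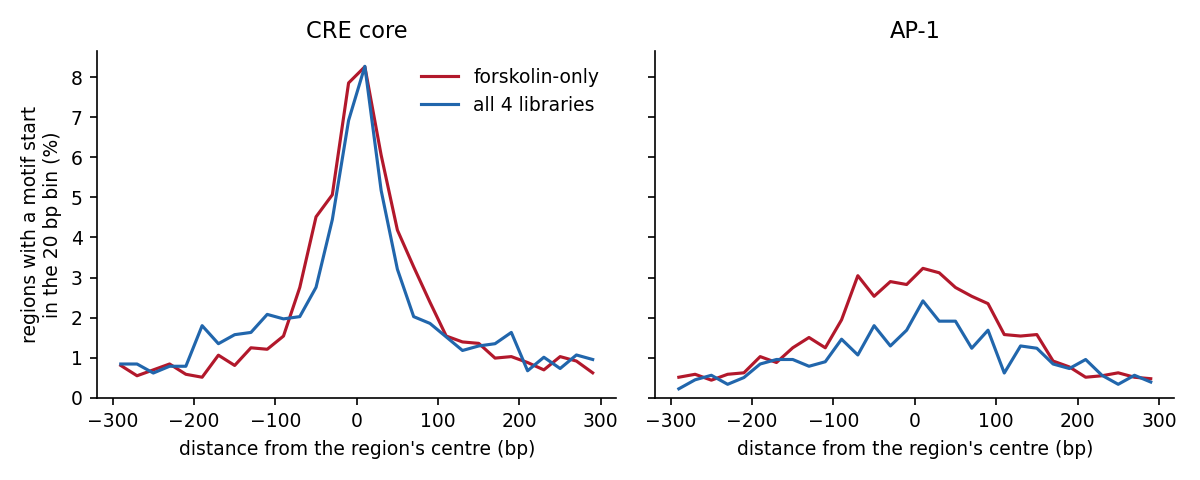
Percent of regions with a motif start in each 20 bp bin, by distance in bp from the region's centre, for the CRE core and AP-1. Both classes of distal region show a sharp central peak for the CRE core, whose median distance was 26 bp in forskolin-only regions, and a lower, broader rise for AP-1, whose median distance was 43 bp.

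The scores of the selected regions were mostly moderate within their lists. Median percentiles were 46.3 in forskolin replicate 1 and 36.4 in forskolin replicate 2, against 73.5 and 64.3 for distal regions of all 4 libraries. Percentiles of 90 or more in both lists were reached by 54 regions (1.98%), and 747 (27.4%) lay in the upper part of both lists, at 50 or more, while 384 (14.1%) were below 25 in both. Ranks in the forskolin libraries correlated across the 2725 regions with a Spearman coefficient of 0.655 and across the 1778 regions of all libraries with one of 0.859. These correlations are across regions that share their libraries, and are a description.

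**Figure D3:**
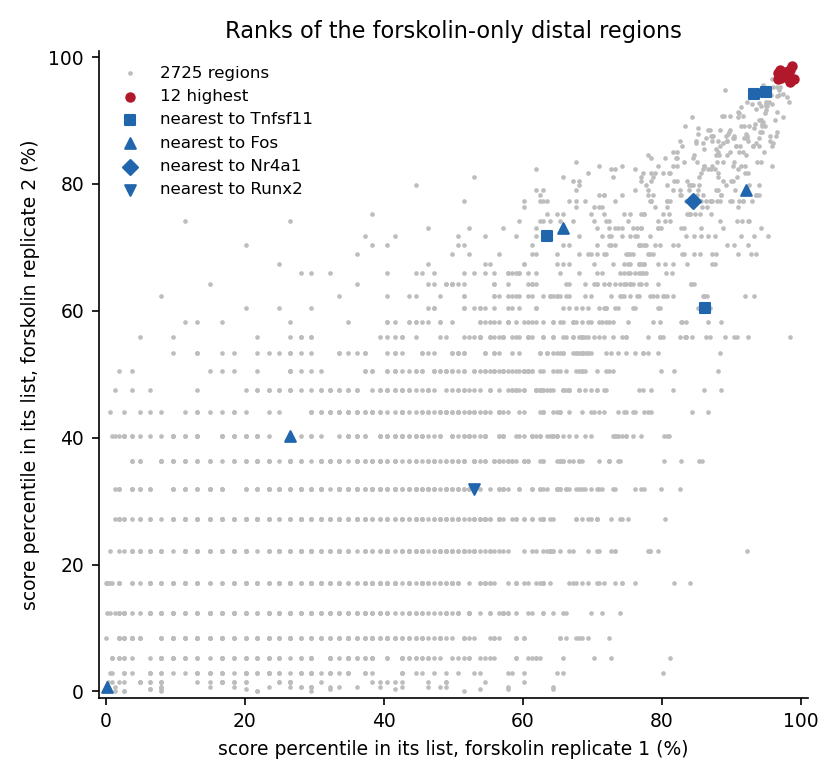
Score percentile of each of the 2725 forskolin-only distal regions in the lists of forskolin replicates 1 (horizontal) and 2 (vertical), in percent; coloured points are the 12 highest regions and all regions nearest to Tnfsf11, Fos, Nr4a1 and Runx2. A pair of Tnfsf11 regions sits near the upper corner, whereas the Fos regions run from 0.256 to 79.0 in their lower percentile.

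The CRE core was more frequent the higher a region ranked, and AP-1 was not. The regions were divided into 4 bands of 591 to 763 regions by the lower of their forskolin percentiles, with ties kept together. The core was in 23.9% (20.6 to 27.5, 591 regions) of the lowest band, in 32.8% and 39.0% of the middle bands, and in 59.5% (55.8 to 63.1, 692 regions) of the highest. AP-1 stayed between 23.0% and 25.4% in all bands. Distal regions of all 4 libraries within the same percentile limits held the core in 9.52% (4.91 to 17.7, 84 regions), 12.8%, 15.0% and 43.4% (40.5 to 46.3, 1118 regions), and AP-1 in 13.1% to 15.6%. At matched rank limits, both shares were thus higher in forskolin-only regions in each band. The intervals did not overlap for the core in any of the 4 bands, and for AP-1 they overlapped in the lowest band only. The full CRE was in 1.35%, 3.67% and 4.42% (3.11 to 6.24) of forskolin-only regions in the lower 3 bands, against 0 of 84 regions (upper bound 4.37%), 0.493% and 1.07% (0.418 to 2.72) of regions of all libraries. In the highest band the order was reversed, with 4.62% (3.29 to 6.46) in forskolin-only regions and 8.41% (6.92 to 10.2) in regions of all libraries. The highest band has a lower limit only, and the regions of all libraries reach higher within it.

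**Figure D4:**
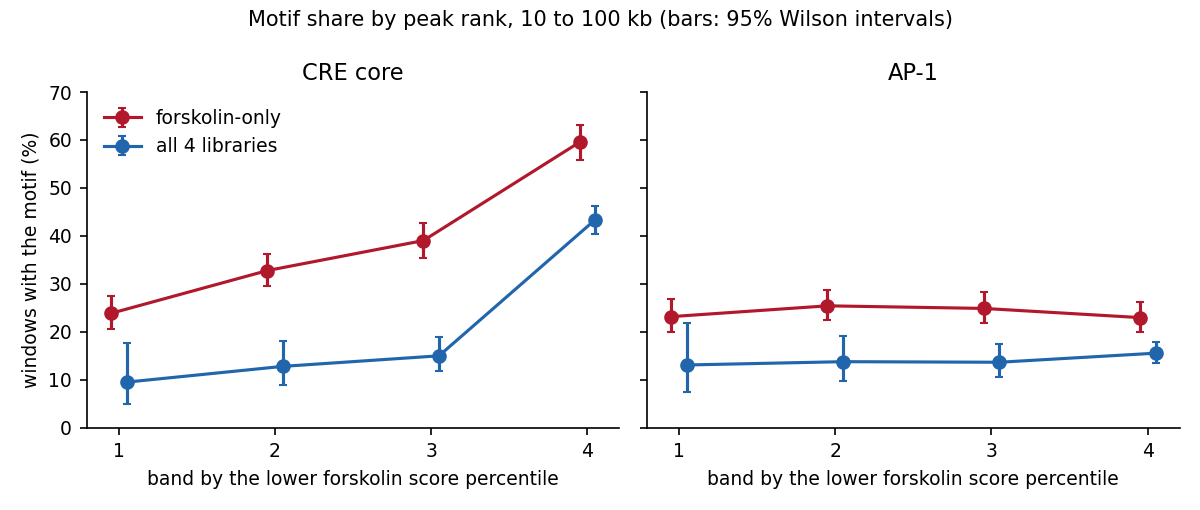
Percent of 201 bp windows with the CRE core or AP-1, by band of the lower forskolin percentile, for forskolin-only distal regions and for distal regions of all 4 libraries within the same percentile limits; bars are Wilson 95% intervals. The core share climbs from 23.9% to 59.5% in forskolin-only regions and lies above the other class in each band, whereas AP-1 stays flat in both.

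Position had little bearing on these shares. The core was in 39.9%, 38.5% and 39.5% of regions at 10 to 20, 20 to 50 and 50 to 100 kb, and in 37.4% (34.8 to 40.1) of intronic and 40.0% (37.5 to 42.6) of intergenic ones. Base composition did differ between classes. Median GC content was 48.8% in forskolin-only regions, 51.2% in distal regions of all libraries and 45.8% in flanks, with a mean of 3.85, 5.76 and 2.12 CpG pairs per window. Each core itself contributes a CpG, and the part of composition in the motif shares was not tested.

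Taken library by library, the core share of distal peaks overlapped between treatments with the lists as deposited. The selected regions are distal peaks of both forskolin lists and of neither vehicle list. The per-library shares and their p-values are therefore not independent of the rule. The core was in 21.0% and 29.5% of distal peaks of the vehicle libraries and in 27.96% and 30.9% of those of the forskolin libraries, a difference of 4.24 percentage points (exact two-sided permutation p = 0.667, n = 2 each, adjusted p = 0.833 over 5 per-library comparisons). With the 10180 highest peaks of each list the difference was 16.7 points and the groups did not overlap (exact permutation p = 0.333, n = 2 each, the smallest that 2 libraries against 2 can give), and the same p was reached with the TSS of every gene biotype, at 5.50 points. Those 10180 peaks are the whole list of vehicle replicate 2 but only the top of the longer lists. With the top 50% of each list the difference was 4.72 points. It was 4.665 with a lower limit of 20 kb, 3.485 with a motif window of 50 bp and 4.471 with every transcript of protein-coding genes. In each of these the groups overlapped (exact permutation p = 0.667, n = 2 each). The full CRE was in 3.10% and 4.66% against 3.12% and 3.69% (exact permutation p = 1, n = 2 each). AP-1 was in 16.2% and 12.4% of distal vehicle peaks and in 20.8% and 18.6% of distal forskolin peaks, higher in both forskolin libraries by 5.42 percentage points on average (exact permutation p = 0.333, n = 2 each, adjusted p = 0.556).

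The 12 highest regions lay near genes of several kinds. The highest was 24589 bp downstream of the TSS of Trim25, a ubiquitin ligase of antiviral signalling (chromosome 11, 88885481 to 88885845, intergenic), with deposited scores of 140.6 and 107.4 in forskolin replicates 1 and 2 and percentiles of 98.7 and 98.6. The second was 53540 bp upstream of Tiparp, an ADP-ribosyltransferase (chromosome 3, 65278631 to 65278952, intergenic), with scores of 131 and 94.3. The third lay in an intron of Arhgap28, a GTPase-activating protein (chromosome 17, 68215997 to 68216327), 29288 bp inside the gene, with scores of 129.8 and 90.9. All 3 held at least 1 core, as printed above.

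The next regions in order were near Tacc1, a centrosomal coiled-coil protein (-72957 bp, intergenic), Popdc2, a cAMP-binding membrane protein (34003 bp, within a noncoding exon of its neighbour Pla1a), and Plekha2, a phosphoinositide-binding adaptor (23042 bp, intronic). Negative distances are upstream of the TSS. Then came Atg4c, an autophagy protease (-24720 bp), Kcne4, a potassium channel subunit (49354 bp), and Qpct, glutaminyl cyclase (41833 bp), all intergenic. The last of the 12 were near Scd3, a fatty acid desaturase (11199 bp, intergenic), Lekr1 (-30129 bp, intergenic) and Prrx1, a homeobox factor of limb and craniofacial mesenchyme (-10456 bp, in an intron). Of the 12, 10 held a core, and the exceptions were Atg4c and Qpct. Their lower percentiles ran from 96.1 to 98.6, so all 12 were close to the top of both forskolin lists.

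Tnfsf11 had 4 of these regions, all upstream. The highest-ranked lay at -22725 bp (chromosome 14, 78730419 to 78730730), with scores of 77.3 and 59.9 and percentiles of 94.9 and 94.6, and held an E-box and no core. The farthest was at -76544 bp (78784227 to 78784560), with scores of 64.9 and 58.5 and percentiles of 93.3 and 94.2, and held a core and a RUNX motif. Beside it were regions at -75375 bp, with scores of 19.8 and 22 (percentiles 63.4 and 71.8), and at -68368 bp, with scores of 41.1 and 17.2 (percentiles 86.2 and 60.4). Neither of these held a core. These neighbours and the farthest region lay within 8534 bp, 1 of 12 places in the genome with 3 of the selected regions in a run with gaps of at most 10 kb.

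Fos also had 4. At -11571 bp (chromosome 12, 86803114 to 86803424) the scores were 58.7 and 26.8, at percentiles of 92.1 and 79.0, with RUNX and TEAD motifs and no core. At -32188 bp the scores were 21 and 22.7, and at -34405 bp they were 9.8 and 12.4, both with a core. At 18360 bp downstream the scores were 4.8 and 4.8, at the bottom of both lists, again with a core. For Fos, then, the strongest region lacked the core and the 3 weaker ones held it. Nr4a1 had 1 region, at -12872 bp (chromosome 15, 101084208 to 101084601), with scores of 37.7 and 25.5 and percentiles of 84.4 and 77.4. Its window had a GC content of 64.7% with 18 CpG pairs, the highest of the printed sequences. Runx2 had 1, in an intron 80127 bp from the TSS (chromosome 17, 44791354 to 44791676), with scores of 15.8 and 11 and percentiles of 53.0 and 32.0.

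In all, 2030 of 22232 annotated protein-coding genes (9.13%) were the nearest gene of 1 or more selected regions. Of these genes 1536 had 1 region, 343 had 2 and 151 had 3 or more. The lists below were drawn up with earlier results of these data known, and their genes can differ from others in how much sequence surrounds them, so each count is set beside those of the other distal classes, for which the background was 6.39% (all 4 libraries) and 12.6% (1 library). A nearest gene is an assignment by distance and does not show which gene a region controls.

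Of 31 annotated cAMP and immediate-early genes, 14 (45.2%) had a forskolin-only distal region, against 9 with a distal region of all libraries and 12 with one of a single library. They were Nr4a2, Myc, Fos, Nr4a1, Sik1 and Nfil3, and also Atf3, Ier3, Nr4a3, Klf4, Cebpb, Ier5, Jun and Gadd45a. The region of Nr4a2, an orphan nuclear receptor, was at -32963 bp with scores of 44.4 and 34.4 (percentiles 87.8 and 85.6) and a core. That of Myc, a growth-promoting transcription factor, was 30682 bp downstream with scores of 33.4 and 31 (percentiles 81.5 and 82.9) and a core. Sik1, a kinase that restrains CREB coactivators, had one at -60887 bp with scores of 24.8 and 23.4, also with a core. Nfil3, a bZIP repressor, had one at -20700 bp with scores of 13.8 and 20 and the full CRE printed above. All 3 Nr4a genes were among the 14.

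Of 40 genes of cAMP production, breakdown and protein kinase A, 13 (32.5%) had such a region, against 6 with a distal region of all libraries and 9 with one of a single library. Phosphodiesterases, which degrade cAMP, made up 6 of the 13, namely Pde10a, Pde3b, Pde4d, Pde8a, Pde4b and Pde7b. At Pde10a the region lay at -37389 bp (chromosome 17, 8680683 to 8681013), with scores of 50.1 and 45.4 and percentiles of 89.8 and 90.7, and was the highest-ranked of the 98 regions with a full CRE. At Pde3b it was in an intron 64732 bp from the TSS, with scores of 52 and 31.7 and a core, and at Pde4d in an intron at 18204 bp, with scores of 15.3 and 11.7 and a core. Rgs2, a regulator of G proteins, had one at -82106 bp with scores of 37.2 and 27.5 and an AP-1 site. Akap12, a scaffold of protein kinase A (-65478 bp, scores of 23.6 and 20.7), had an AP-1 site and no core, and Adcy9, an adenylyl cyclase (82294 bp, intronic, scores of 24.8 and 16.5), had neither. Pth1r, the PTH receptor, was also on this list of 13.

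Of 32 PTH-responsive genes, 14 (43.8%) had a forskolin-only distal region, 8 a distal region of all libraries and 17 one of a single library. After Tnfsf11 the highest was Lrp6, a Wnt coreceptor, with a region over a coding exon at 20298 bp, scores of 34.4 and 32.4 and both a core and an AP-1 site. Cxcl1, a chemokine, followed at -14373 bp with scores of 65.9 and 26.2 and neither motif. Adamts1, a matrix protease (53336 bp, scores of 37 and 24.1), and Il6, a cytokine (-12065 bp, scores of 20.8 and 23.4), each had a core. Hdac4, a histone deacetylase, had an intronic region at -54598 bp with scores of 17.9 and 12.4 and none of the motifs searched. Csf1, Ptgs2, Has2, Tgfb2, Fgf2, Vdr, Mef2c and Lif were the others.

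By count, the osteoblast lineage and matrix list was the only one of the 7 lists outside the cell type markers in which distal regions of all libraries reached more genes than forskolin-only ones, 16 against 12 of 33. The classes differ in size, with backgrounds of 6.39% (all libraries) and 9.13% (forskolin-only) of genes. Set against these backgrounds, the Wnt, BMP and TGF-beta list, with 22.5% and 27.5%, also leaned to regions of all libraries. The 12 included Mgp, an inhibitor of calcification (-22763 bp, scores of 63.3 and 51.6, no core), and Phex, a peptidase of phosphate metabolism with an intronic region at 24863 bp, scores of 27.2 and 18.6 and a full CRE. Col1a1, the main collagen of bone (-53075 bp, scores of 19.6 and 17.9), had a core. Dlx3, a homeobox factor (-21276 bp, scores of 22.4 and 16.5), Alpl, alkaline phosphatase (17503 bp, intronic, scores of 24.6 and 13.8), and Col5a1 (-51367 bp, scores of 20 and 13.8) had neither a core nor an AP-1 site.

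Among signalling genes, 11 of 40 Wnt, BMP and TGF-beta genes had a forskolin-only distal region, with 9 for regions of all libraries and 19 for those of 1 library. Tgfbr2, a TGF-beta receptor (90725 bp, in a noncoding exon, scores of 21 and 21.3), and Smad3, its signal transducer (-35848 bp, scores of 19.1 and 20.7), had a core. Ctnnb1, beta-catenin, was nearest to a region in an intron of Ulk4 at 45177 bp, with scores of 14.6 and 18.6 and a full CRE. Sfrp2, a Wnt antagonist (23964 bp, scores of 17.9 and 14.5), and Axin2, a negative feedback gene of the pathway (-22158 bp, scores of 13.1 and 13.1), had an AP-1 site, while Nog, the BMP antagonist noggin (62518 bp, scores of 14.8 and 16.5), had neither.

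For growth factors and receptor kinases the count was 11 of 31, against 7 and 18. Met, the receptor of hepatocyte growth factor, had the highest-ranked of these regions (26441 bp, in a noncoding exon, scores of 82.8 and 37.9, with a core). Notch1 (-26701 bp, scores of 22.9 and 20.7, with a core) and Kitl (14729 bp, scores of 20.3 and 16.5) had lower ones. Fgf18 (23595 bp, 13.6 and 16.5) and Fgf7 (-58526 bp, in an intron of Galk2, 40.1 and 11.7) each had a core. Of 30 cytoskeleton and adhesion genes 13 had such a region, against 7 and 13. Cald1, an actin-binding protein, had the highest (11388 bp, intronic, scores of 55.1 and 50.3, with a core), and Myh9, nonmuscle myosin (19419 bp, 24.6 and 16.5), also had a core. Itgav (34274 bp, 19.6 and 13.1) and Tpm1 (-55446 bp, 11.7 and 11.7) had an AP-1 site, and Itgb3 (11707 bp, 16 and 15.8) and Pxn (25150 bp, 12.9 and 11) had neither.

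Of 48 annotated markers of other cell types over 5 lists, 7 (14.6%, beside the 9.13% of all genes) had a forskolin-only distal region, 2 a distal region of all libraries and 7 one of a single library. Chondrocyte markers gave 4 of 10, against 1 and 3 for the other classes, a share within the range of the lists above. The 4 were Col11a1 (-77871 bp, scores of 62.5 and 20.7), Sox5 (-60897 bp, 15 and 11), Sox9 (65915 bp, 8.6 and 12.4) and Acan (-62925 bp, 6.7 and 5.5). The others were Pparg for adipocytes (-27990 bp, 23.9 and 13.1; list counts 1, 1 and 2 of 10 in the 3 classes), Tnfrsf11a for osteoclasts (47396 bp, 19.3 and 11; 1, 0 and 0 of 9) and Nefl for neurons (-38829 bp, 8.4 and 6.2; 1, 0 and 2 of 9). None of 10 skeletal muscle markers had a region of any of these classes.

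**Figure D5:**
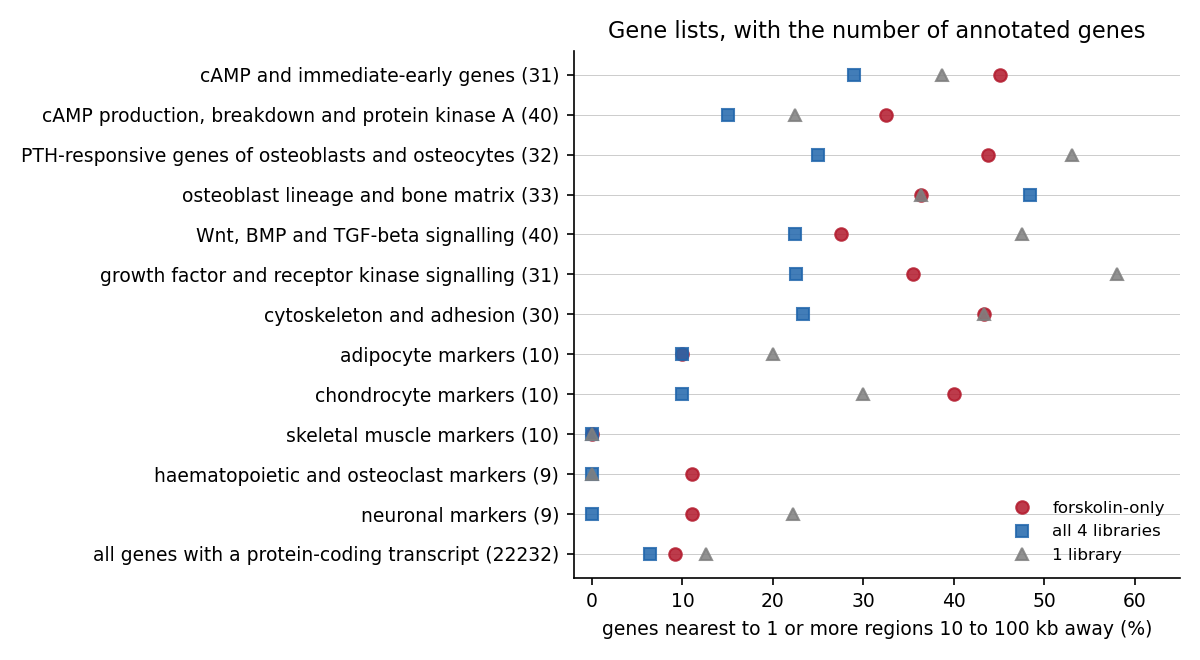
Percent of the annotated genes of each list, with their number in brackets, that were nearest to 1 or more distal regions, for forskolin-only regions, regions of all 4 libraries and regions of 1 library. Forskolin-only regions reached 45.2% of cAMP and immediate-early genes against 9.13% of all genes. Regions of all 4 libraries reached 29.0% against 6.39%, and regions of 1 library 38.7% against 12.6%. By count, the osteoblast list is the one where regions of all libraries reached more genes than forskolin-only ones (16 against 12 of 33).

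Most of the selected regions stood alone. Another lay within 10 kb of 420 (15.4%, 14.1 to 16.8). Within their own classes the share was 10.5% (9.18 to 12.03) for the 1778 distal regions of all libraries and 19.1% (17.9 to 20.3) for the 4171 of 1 library, so that it followed the number of regions in a class. Chained at that distance, they formed 188 pairs, 12 runs of 3 and 2 runs of 4, with 2305 alone. The runs of 4 spanned 18597 bp near Cdkn2aipnl (chromosome 11, 51747703 to 51766299), where 3 of the 4 held a core, and 14775 bp near Mamdc2 (chromosome 19, 23448262 to 23463036), where 1 did. A region with a peak in either vehicle library lay within 10 kb of 570 selected regions (20.9%) and within 1 kb of 60. Most were therefore more than 10 kb from any site found under vehicle.

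The most regions at a single gene was 5, reached by 12 genes. Galnt2, a glycosyltransferase, had the highest-ranked among them, in an intron at 10970 bp (chromosome 8, 126766083 to 126766439; scores of 98.1 and 61.3, with a core), and 4 more between -59663 and 28872 bp. Adamts16, a matrix protease, had all 5 in its introns, from 18237 to 97245 bp, with scores of 69.5 and 60.6 at the strongest, and 3 of them held a core. Gm9887 had 5 between -86000 and -16101 bp. Auh, an RNA-binding enzyme, had 5 in its introns with 3 cores, the highest with scores of 93.6 and 47.5, and Syt13, a synaptotagmin, had 5 with 2 cores, the highest with scores of 53.7 and 44.7. Of the 2030 genes, 684 (33.7%) carried a promoter region shared by all 4 libraries, at most 1 kb from a TSS, against 30.03% of all 22232 genes and 33.3% of the 1420 genes nearest to distal regions of all libraries. A forskolin-only promoter region was present at 131 of the 2030 (6.45%), against 2.79% of all genes, but also at 6.90% of the genes nearest to distal regions of all libraries and 5.11% of those nearest to distal regions of 1 library.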

How the data were processed

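Phospho-CREB peak lists of 4 chromatin immunoprecipitation libraries were analysed, 1 list per library. Per the submitters' processing notes, Bowtie and HOMER were used with build mm9, with no versions. The value per peak is the authors' deposited score, and its scale, threshold and input correction are not given in the sources used; scores therefore served for ranks inside each list alone. The lists hold no read totals.

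Regions, classes and distances followed the rule given above, with GENCODE M1 on NCBIM37. The regions and gene lists were chosen with earlier results of these data known. Of 288 list genes, Cebpd, Spi1 and Map2 matched no protein-coding transcript. Named were the 12 highest regions, the highest region of up to 6 genes per list, the 5 genes with most regions, and Tnfsf11, Runx2, Fos and Nr4a1; 1 gene so picked is not reported here. Motifs were sought within 100 bp of the centre. Flanks overlapped no region. BLAST 2.17.0 (90% identity over 200 bp) found further genomic matches for 15 of 2725 regions, none of them named or printed. Motif shares per library were compared with exact two-sided permutation tests, with Benjamini-Hochberg adjustment over 5 planned per-library comparisons, of which the number and share of distal peaks are given untested. The merging and motif code was tested on simulated data. Alternatives covered overlap, list length, distance limits, annotation, motif window and left-out libraries. Python 3.11.15 was used with numpy 2.4.6, pysam 0.24.0 and matplotlib 3.10.9.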

Additional observations from a re-analysis of the deposited data

How the results depend on the processing

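The selected regions numbered 2642 with 50% overlap of the shorter peak required, 2713 with peaks within 500 bp joined, 1961 and 3220 with lower limits of 20 and 5 kb, 2562 with the TSS of every gene biotype and, in an alternative chosen after seeing the data, 2594 with every transcript of protein-coding genes. In these 6 the core share stayed between 38.3% and 40.4%. With the top 50% of each list there were 1507 regions, with the core in 51.6%, the full CRE in 5.71% and AP-1 in 20.8%. With the 10180 highest peaks of each list there were 880, with 57.5%, 5.11% and 22.5%. The core and AP-1 shares were 29.0% and 13.1% with a motif window of 50 bp and 45.3% and 32.2% over whole regions. Leaving out 1 library gave 2886 to 5892 regions, most without forskolin replicate 2, with the core in 29.8% to 39.1%, the full CRE in 2.83% to 3.67% and AP-1 in 20.5% to 23.9%.

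Of the per-library differences, forskolin minus vehicle, that in the full CRE (-0.47 percentage points) reversed to 1.26 with lists of equal length and to 0.0831 with every gene biotype, and ranged from -1.25 to 0.30 when 1 library was left out. That in the core (4.24) became 16.7 with lists of equal length but 4.72 with the top 50% of each list. When 1 library was left out the core difference ranged from -0.0040, without vehicle replicate 1, to 8.48. The distal peak number ranged from 3609.5 to 6655.5, its share from 9.23 to 14.5 percentage points and the AP-1 difference from 3.52 to 7.32. With a replicate block, the pairs differed by 4493 and 5772 distal peaks, 11.0 and 12.8 points of distal share, 1.48 and 6.995 of core share, -0.97 and 0.0216 of full CRE share and 4.62 and 6.23 of AP-1 share (for the motif shares, exact sign-flip p of at least 0.5, the smallest possible). The numbers are replicate labels only; deviations of same-numbered libraries correlated with r = 0.188 across 8930 regions. Causes were not tested. Without read totals, a missing vehicle peak cannot be told from one below the calling threshold.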

Other observations

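Some words were more frequent in regions without a CRE core or AP-1 site than in flanks without these motifs. Of 1950 words of 6 letters compared, the highest ratios were those of CGCAGC, in 7.27% of 1211 such regions against 1.92% of 4795 flanks (ratio 3.79), then of ACGTAA, with 5.29% against 1.44%, and of ACCGCA, with 5.95% against 1.69%, each counted on both strands. No word exceeded a ratio of 3.79 there, whereas ACGTCA, a part of the full CRE, reached 10.1 in all 2725 regions, with 20.3% against 2.02%. The words were ranked by this ratio, so these values are a description.

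The selected regions made up 31.3%, 31.0% and 30.7% of all distal regions on chromosomes 12, 13 and 14, and 20.2% and 20.8% on chromosomes X and 3. These are the ends of a graded spread around the 25.0% of all distal regions, with 29.7% on chromosome 1 and 21.0% on chromosome 19. Of the 89 distal regions on chromosome X, 18 were selected. Regions with an AP-1 site and no core had a median lower percentile of 24.2, close to the 22.2 of regions with neither motif, while those with a core but no full CRE had 40.5 and those with both a core and AP-1 had 44.1.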
